A study of Mus musculus with 12 samples.

Results

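Cluster 5 is the set of cells that the authors' deposited cell table calls late pachytene and places in the fifth of 5 k-means clusters. It held 268 of the 929 kept cells of the study, and 267 of these came from the 3 wild-type libraries collected at 360 h (83, 91 and 93 cells). The remaining cell came from library 1 of the wild type at 260 h. All mice were C57BL/6, and all cells were germ cells of the testis. The groups were wild type and Zfp541 knockout, each at 260 h and at 360 h, with 3 libraries per group and 12 in all. Zfp541 encodes a spermatocyte zinc finger protein, and the labels do not describe its knockout allele further. Every group, wild type included, had been synchronised: mice were fed WIN 18,446, a blocker of retinoic acid synthesis, from 2 days after birth for 7 days, and received retinoic acid by injection on day 8. The time of a group counts from that injection. The late pachytene cells of the knockout were all in another cluster, number 4 (222 cells). The knockout 360 h libraries gave 77, 66 and 77 of these, and no other library had 10 cells of cluster 4. Genotype and cluster therefore cannot be told apart between clusters 4 and 5.

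Pachytene is the long stage of male meiotic prophase in which homologous chromosomes are fully synapsed along the synaptonemal complex and crossovers form. The X and Y chromosomes are silenced in the sex body at this stage. In the later part of the stage the cells start to make large amounts of RNA for sperm structures that are assembled only after the meiotic divisions: the flagellar axoneme, the acrosome and the enzymes of sperm glycolysis. They also prepare the kinases and cyclins of the first meiotic division.

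The values are raw counts of unique molecular identifiers (UMIs, which tag single cDNA molecules), taken at the 3′ ends of transcripts, so that no correction for transcript length was made. Levels are given as counts per 1000000 gene UMIs (CPM) of the cells summed per library, with the SD over the 3 wild-type 360 h libraries (n = 3). The cluster 5 cells gave 12871607, 14538367 and 27090882 gene UMIs in libraries 1, 2 and 3. The median cell had 154028, 151940 and 289197 UMIs and 10602, 10355 and 11251 detected genes. The same 96 barcodes were used in every library, as plate barcodes are, and cells had been picked by hand with a mouth pipette. No label ties the 3 libraries of a group to different mice, so a p-value here speaks of library-to-library spread, part of which may be technical. Zfp541 stood at 168, 128 and 141 CPM in the cluster 5 libraries and at a mean of 149 CPM in cluster 4, so these 3′ counts check nothing about the genotype labels.

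Library 3 stood apart within cluster 5. The round-spermatid markers Prm1, Prm2, Tnp1, Tnp2 and Acrv1 summed to 5.21, 4.61 and 122 CPM in libraries 1, 2 and 3, and had a UMI in 43 of 83, 43 of 91 and 93 of 93 cells. A single cell of library 3 held 43.9% of that library's UMIs of these markers, and without it the sum was 69.4 CPM. Library 3 had 604 genes at least 3-fold above both other libraries, against 40 and 33 for libraries 1 and 2, and these included 26 of 36 genes of a spermatid list. The 5 markers of blood and macrophages went the other way, at 156, 107 and 2.07 CPM, and of these C1qb was at 0 in every cluster 5 library. A single cell held 676 of their 2013 UMIs in library 1, and another 438 of 1549 in library 2. The median cell was at 75.5, 33.1 and 0 CPM. Across genes the libraries correlated at 0.976, 0.954 and 0.953 (Pearson r of log2 CPM). The 4 Sertoli markers summed to 15.5, 5.98 and 4.13 CPM and the 5 spermatogonial markers to 22.8, 13.9 and 9.12 CPM. Among the 260 h wild-type libraries, library 3 also stood apart, since its pachytene cells were in cluster 3 with the knockout cells. The part of these differences in the results below was not tested, and cluster counts of a list that change by over 1.5 times without library 3 are given both ways.

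The 6 marker genes of the cluster were high in every cluster 5 library. Ggn, gametogenetin, was at 239.8, 188 and 190.1 CPM, against a mean of at most 2.59 CPM in any other cluster. Tekt3, a tektin of flagellar doublet microtubules, was at 206, 239 and 133 CPM, 41.5 times the highest other cluster. Dmrtb1, a DM-domain transcription factor, was the most abundant of the 6, at 392, 535 and 456 CPM, but only 4.10 times the highest other cluster. These ratios compare mean CPM with 1 CPM added to each side. Ovol2, a zinc finger transcription factor, was at 60.9, 70.3 and 115 CPM. Hoxa4, a homeobox gene, was at 40.9, 68.6 and 96.0 CPM. Ccna1, the germ-cell cyclin A needed for the first meiotic division, was at 47.8, 59.0 and 64.2 CPM. Ggn was highest in library 1, Tekt3 and Dmrtb1 in library 2, and the other 3 in library 3, so no library was high throughout. The sum of the 6 genes was 1067 ± 87.3 CPM in cluster 5 and at most 122 CPM in the mean of any other cluster.

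**Figure D1:**
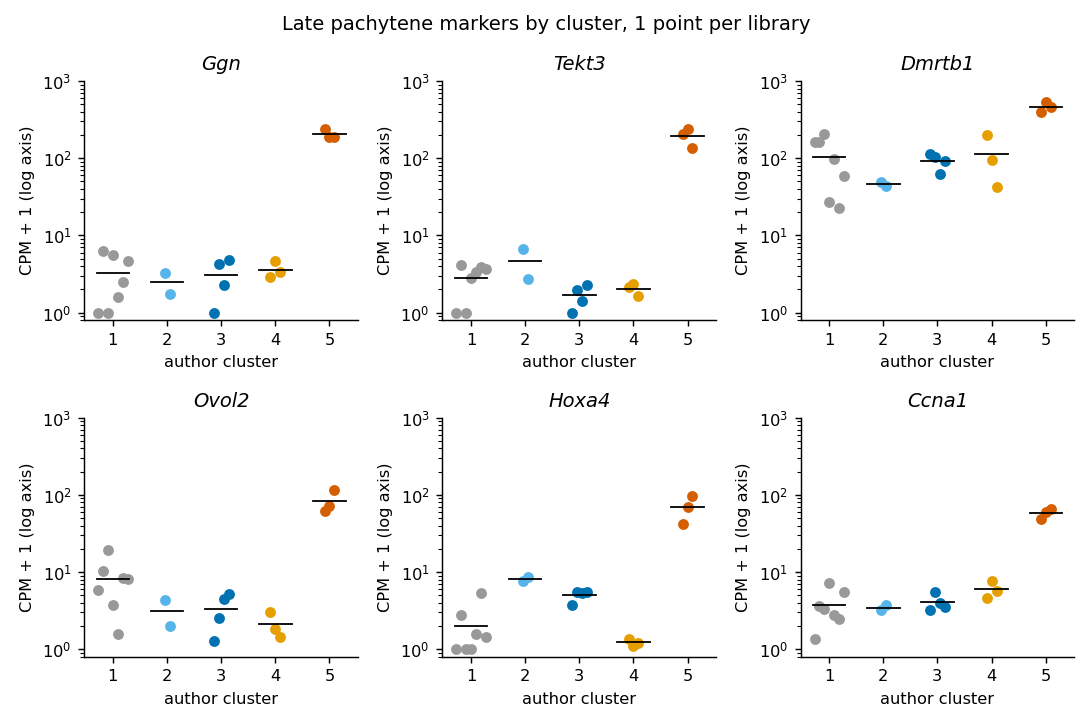
CPM + 1 (log axis) of the 6 marker genes in each library of clusters 1 to 5, 1 point per library with at least 10 cells of the cluster and a line at the mean. The cluster 5 libraries lie above those of the other clusters for each gene, with the smallest gap for Dmrtb1, whose highest other library is at 204 CPM.

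Single cells showed the same markers. With each cell thinned to 44624 UMIs, at least 4 of the 6 genes had a UMI in 267 of the 268 cluster 5 cells, and all 6 had one in 67.2% of them. In clusters 1, 2, 3 and 4 at least 4 of the 6 were seen in 4, 1, 1 and 0 cells, of 137, 88, 214 and 222. Wild-type 360 h had 272 kept cells, and the 5 outside cluster 5 were all in cluster 1, which the authors call pre-meiotic. In these 5 cells the 6 markers summed to 277 to 736 CPM, and in 4 of them the sum was inside the range of single cluster 5 cells at 360 h (339 to 2074 CPM). As these genes were chosen for the cluster, their levels describe it and test nothing.

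The test of these markers across libraries compared the labelled groups, summed over all kept cells, and not the clusters. Cell mix differed between the groups. Pre-meiotic cluster 1 held 24 of 52, 11 of 68 and 17 of 89 cells of the wild-type 260 h libraries. At 360 h 267 of the 272 wild-type cells were in cluster 5. In the knockout 360 h libraries 77 of 77, 66 of 80 and 77 of 89 cells were in cluster 4, and library 3 had 10 cells of cluster 1. Neither comparison is therefore of late pachytene cells alone. Ggn was 6.43 ± 0.92 higher on the log2 scale in wild type at 360 h than at 260 h (± SE, adjusted p = 0.00022) and 6.61 ± 0.92 higher than in knockout at 360 h (adjusted p = 0.000309). For Ccna1 the differences were 4.44 ± 0.47 (adjusted p = 1.2e-05) and 3.90 ± 0.45 (adjusted p = 2.46e-05), and for Dmrtb1 3.22 ± 0.51 (adjusted p = 0.000282) and 2.36 ± 0.49 (adjusted p = 0.00346). Both comparisons use the same wild-type 360 h libraries and are given side by side for that reason. Of the 20279 genes tested, 39.9% were called between the times and 22.5% between the genotypes at 360 h (edgeR quasi-likelihood test, Benjamini-Hochberg adjusted p under 0.05). All 6 markers were called higher in both comparisons, against 20.9% and 13.5% of all genes tested. Because the markers were chosen for this cluster, that count supports nothing further.

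The genes most particular to cluster 5 were those at least 4-fold above each other cluster with at least 20 CPM in all 3 libraries. There were 330 of them, 1.63% of the genes tested and 5.64% of the 5850 genes at 20 CPM or more. Since every gene of these cells was open to the clustering, the list is a description and not a test. Together the 330 genes took 4.77 ± 0.71% of the UMIs in cluster 5 and 0.206%, 0.392%, 0.200% and 0.538% in clusters 1 to 4. The median ratio was 7.21, and 109 genes were at least 10-fold above every other cluster. The next-highest cluster was cluster 4 for 191 of the genes, cluster 2 for 89, cluster 1 for 27 and cluster 3 for 23. At the edge of the list, Nudt18 was just outside with a ratio of 3.998 and Ccdc40, a factor of ciliary motility, just inside with 4.01. Leaving out libraries 1, 2 or 3 gave lists of 365, 309 and 370 genes, of which 322, 303 and 317 were shared with the 330.

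Long noncoding transcripts were frequent among the 330 genes. In them 17.6% (58 genes) were annotated as lincRNA and 64.2% as protein coding, against 3.33% and 90.6% of the 5850 genes. Of the 330 genes, 0 were X-linked, and only 5 X-linked genes reached 20 CPM in each library.

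Genes with only a predicted, clone or accession name were left out of the 20 genes of highest ratio. These 20 differed widely in level. Mesp1, a basic helix-loop-helix transcription factor best known from early mesoderm, was at 516, 606 and 488 CPM and at most 10.8 CPM in the mean of another cluster. Nlrp14, an NLR family gene of germ cells, was at 426, 570.4 and 341 CPM and at most 9.24 CPM elsewhere. Slco6c1, an organic anion transporter of testis, was at 409, 476 and 362 CPM and at most 12.3 CPM elsewhere. In all 3 genes library 2 was highest and library 3 lowest, and no library came near the other clusters. Pou5f2, a POU-domain transcription factor of male germ cells that lies within the gene Fam172a, was at 159, 304 and 93.9 CPM, 31.0 times the highest other cluster. Hyal6, a hyaluronidase, was at 83.3, 137 and 71.4 CPM, a ratio of 35.5. Ghrl, the gene of the hormone ghrelin, was at 141, 328 and 178 CPM, a ratio of 30.1. Library 2 was highest for these 3 genes as well, and the spread between libraries was small beside the distance from the other clusters. The serine protease gene Prss39 varied more, at 46.0, 157 and 70.2 CPM. Prdx6b, an intronless relative of the peroxidase gene Prdx6, was the most abundant of these 20 genes, at 917, 1201 and 686 CPM, a ratio of 24.3. Its copies are near-identical, so its counts are uncertain, and so are those of Ccdc7a (401, 354 and 219.7 CPM), which has the neighbour Ccdc7b. No source used here says whether counting was stranded. Ggn overlaps Spred3, Frs3os overlaps Frs3, Tmem202 overlaps Hexa and Dhx58 overlaps an antisense gene, each on the opposite strand. Whether reads of such pairs were told apart is therefore unknown, and their counts are uncertain. Dhx58, a cytoplasmic sensor of double-stranded RNA also named LGP2, was at 74.3, 97.5 and 53.9 CPM, and the membrane protein gene Ifitm7 at 72.6, 107 and 41.9 CPM.

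For 3 of these genes the 150 bases just before the RefSeq transcription start (build GRCm38.p6) hold no annotated exon, and they are shown because the genes are high together in this cluster. A match to the MYB motif is in capitals, since A-MYB is a main regulator of pachytene genes.
Slco6c1, chr1:97128304-97128453, minus strand: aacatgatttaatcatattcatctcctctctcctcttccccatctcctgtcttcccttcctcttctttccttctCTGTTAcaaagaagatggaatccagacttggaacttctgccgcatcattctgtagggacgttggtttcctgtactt
Pou5f2, chr13:78024752-78024901, plus strand: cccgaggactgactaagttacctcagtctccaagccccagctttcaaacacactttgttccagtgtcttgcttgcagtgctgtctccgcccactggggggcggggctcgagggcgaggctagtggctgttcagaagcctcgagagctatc
Hyal6, chr6:24733095-24733244, plus strand: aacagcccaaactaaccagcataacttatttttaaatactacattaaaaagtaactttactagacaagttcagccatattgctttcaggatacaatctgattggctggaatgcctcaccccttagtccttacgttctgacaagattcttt
The Slco6c1 stretch held 1 match to TAACNG, on the opposite strand and 76 bases before the start, and the stretches of Pou5f2 and Hyal6 held none of the 3 motifs searched.

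The 3 motifs were searched on both strands in RefSeq promoters from 250 bases before to 50 after the start, and 217 of the 330 genes had a promoter in the table. The MYB motif TAACNG was in 33.6% of these 217 promoters, against 25.9% of all 27025 promoters and 25.9% of the promoters of genes at 20 CPM or more. The RFX motif GTTGCCA was in 9.68%, against 5.02% of all promoters and 5.65% of those of genes at 20 CPM or more. RFX factors are known as regulators of ciliary genes. The cAMP response element TGACGTCA was in 0.922%, against 2.03% and 4.28%. These shares are descriptions with no test. No motif contains another.

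The most abundant RNAs of cluster 5 were mostly shared with other clusters. Mitochondrial genes and genes with only a predicted, clone or accession name were left out of this order. Ldhc, the germ-cell lactate dehydrogenase, led with 3179.9, 3445 and 1763 CPM, and cluster 4 had a mean of 2952 CPM. Meig1, a gene needed for sperm formation, followed with 3098, 3195 and 1859.8 CPM. Next came Rbakdn, a noncoding transcript, at 2609.5, 2783 and 1607 CPM, against means of 221, 477, 138 and 1523 CPM in clusters 1 to 4. Library 3 was lowest for all 3 genes, and indeed for all 15 of the most abundant genes named. Hsp90aa1, a cytosolic chaperone, was at 2685, 2611 and 1520.0 CPM, and Cox8c, a testis form of a cytochrome c oxidase subunit, at 2354, 2465 and 1529 CPM. The other 10 were Ubb (ubiquitin), Calm2 (calmodulin), Rsph1 (a radial spoke protein), Lyar, Tmsb10, Mt1 (a metallothionein), Tuba3a (an alpha tubulin), Fabp9, Nasp (a histone chaperone) and Rpl41. Their mean levels ran from 1551 CPM for Rpl41 to 2058 CPM for Ubb. None of the 15 was more than 1.53 times the highest other cluster, the ratio of Rbakdn. The RNA pool was broad: 923, 829 and 1133 genes held 50% of the UMIs in libraries 1, 2 and 3.

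Some genes were near silence in cluster 5 while at 20 CPM or more in every other cluster. Chd6, a chromatin remodeller, was at 8.55, 5.57 and 5.02 CPM, against means of 97.4 to 311 CPM in clusters 1 to 4. Top2b, a DNA topoisomerase, was at 10.4, 3.92 and 6.94 CPM, against 80.1 to 332 CPM. Dicer1, the nuclease that makes microRNAs, was at 7.77, 2.54 and 2.84 CPM, against 57.9 to 192 CPM. Tcf12, a basic helix-loop-helix transcription factor, was at 3.88, 2.54 and 3.25 CPM, against 54.3 to 119 CPM. Cpeb1, which controls polyadenylation of stored mRNA, was at 3.19, 2.27 and 3.80 CPM, against 64.9 to 146 CPM. All libraries of cluster 5 were far below the other clusters for these 5 genes, and library 1 was the highest for 4 of them. The other 5 genes of lowest ratio were Anp32e, a chaperone of histone H2A.Z, Tgs1, which methylates RNA caps, Smyd5, Ggh and Sbk1, at mean levels of 0.911 to 3.59 CPM. Between the labelled groups Tcf12 fell by 3.53 ± 0.26 against wild type at 260 h and by 4.25 ± 0.27 against knockout at 360 h (log2, ± SE, adjusted p = 3.75e-06 and 4.39e-07). Tcf12 was named here for its low level in cluster 5, and the wild-type 360 h libraries hold the same cells. These p-values therefore describe the gene and add no support.

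By class of RNA, the mean of cluster 5 was outside those of the other clusters in each of the following shares of its UMIs. X-linked genes took 0.179%, 0.135% and 0.208% (0.174 ± 0.0371%), against means of 2.08%, 0.478%, 0.416% and 0.298% in clusters 1 to 4. LincRNAs took 3.29 ± 0.241%, against 1.40% to 2.24%. Mitochondrial transcripts took 1.31 ± 0.25%, against 2.14% to 2.91%, and ribosomal protein genes 4.24 ± 0.455%, against 5.96% to 8.59%. Protein-coding genes took 90.8 ± 0.531%, against 91.2% to 93.6%. Single libraries overlapped for the X-linked, ribosomal protein and protein-coding shares. The lowest X-linked share outside cluster 5 was 0.195% in cluster 4. The lowest ribosomal protein share outside it was 4.14% in cluster 3 (wild type 260 h library 3), against 4.46%, 4.54% and 3.72% in cluster 5. For protein-coding genes the lowest was 90.8% in cluster 1 (wild type 260 h library 1), against 90.9%, 90.3% and 91.4% in cluster 5. The lincRNA and mitochondrial shares did not overlap. Library 3 had the highest X-linked share and the lowest lincRNA and mitochondrial shares of the 3.

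**Figure D2:**
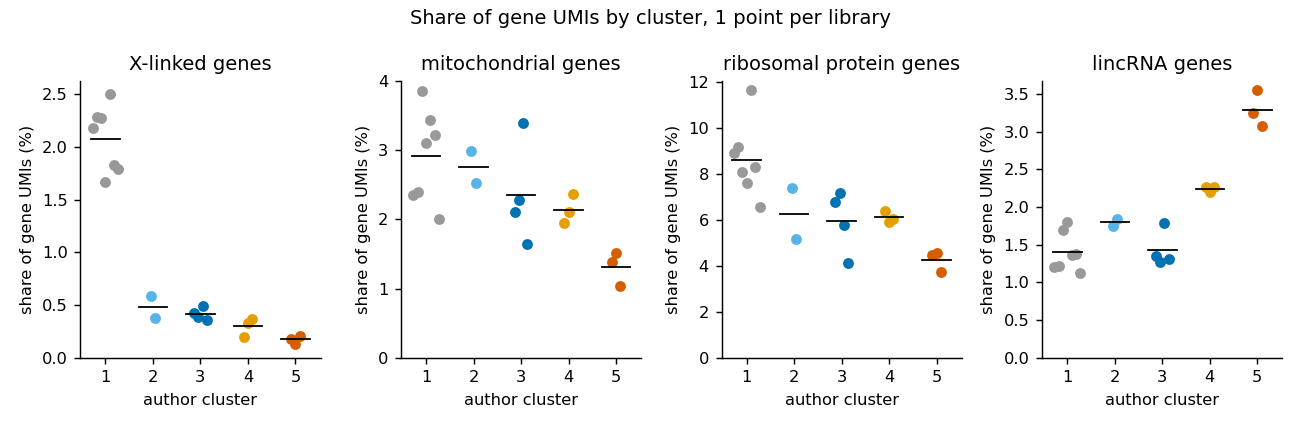
Share of gene UMIs (percent) by class in clusters 1 to 5, 1 point per library with at least 10 cells of the cluster and a line at the mean. Cluster 5 lies lowest for X-linked, mitochondrial and ribosomal protein transcripts and highest for lincRNA in the cluster means.

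Gene lists were read in 2 ways: by the ratio between clusters, with no test, and by the edgeR calls between the labelled groups. Counts are over members that passed the filter on low counts, and a member that passed only through its level in wild type at 360 h had to differ, so the counts describe the lists and are no support by themselves. The p-values of members named for their ratio rest on the same cells that gave the ratio, and are no support either. As background, 8.08% of the genes tested were at least 2-fold above each of clusters 1 to 4 and 7.50% at least 2-fold below each. In wild type at 360 h, 20.9% were called higher and 18.9% lower than in wild type at 260 h, and 13.5% higher and 8.93% lower than in knockout at 360 h. The median log2 difference of all genes tested was −0.10 and −0.03. With libraries scaled by spike-in UMIs these medians were 0.33 and 0.48. The share of calls that were higher went from 52.5% to 72.5% and from 60.2% to 82.9%, so that lower calls are relative to the total of gene UMIs.

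**Figure D3:**
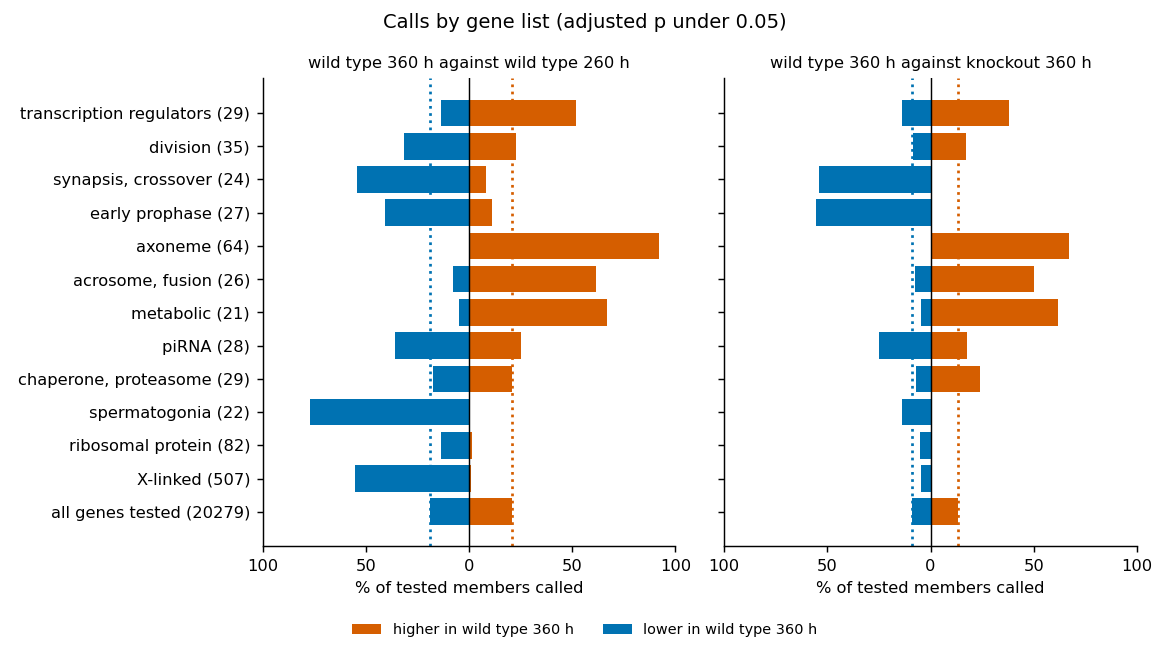
Percent of the tested members of 12 gene lists (number tested in brackets) called higher (right) or lower (left) in wild type at 360 h, against wild type at 260 h and against knockout at 360 h, with dotted lines at the shares of all genes tested. Of the axoneme list 59 and 43 of 64 genes lie on the higher side and 0 on the lower side, while synapsis and early prophase genes lie mostly on the lower side.

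Among 29 transcriptional regulators of the germ line that passed the filter, of 30 listed, 7 were at least 2-fold above every other cluster and 4 at least 2-fold below. Against wild type at 260 h 15 were called higher and 4 lower, with a median log2 difference of 0.95. Against knockout at 360 h the counts were 11 and 4 with a median of 0.53, and without knockout library 3 the higher count was 7. Nkapl, a repressor of Notch signalling in germ cells, was at 367, 449 and 485 CPM and rose by 3.26 ± 0.30 and 1.90 ± 0.28 in the 2 comparisons (adjusted p = 7.77e-06 and 0.000198). Another pair belongs to the germ-cell form of the general transcription machinery. Tbpl1, a TBP-like factor, was at 347, 316 and 535 CPM and rose by 1.76 ± 0.28 and 2.00 ± 0.28 (adjusted p = 0.000218 and 0.000149). Gtf2a1l, a germ-cell TFIIA subunit, was at 283, 317 and 217 CPM and rose by 2.40 ± 0.34 and 3.35 ± 0.35 (adjusted p = 8.33e-05 and 1.06e-05). Brdt, a testis bromodomain protein, was even across the libraries at 451, 454 and 466 CPM, and was not called in either comparison (0.48 ± 0.24 and −0.06 ± 0.24, adjusted p = 0.129 and 0.883). The 4 low members were Btbd18, Six5, Taf7l and Tcf12. Taf7l, the germ-cell TAF7, was at 15.8, 8.67 and 11.2 CPM and had its highest cluster mean, 488 CPM, in pre-meiotic cluster 1.

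Cell division genes were mixed, and most counts of the list were near the shares of all genes tested. Of 35 members, 2 (Ccna1 and Aurkc) were at least 2-fold above every other cluster and 2 (Ccna2 and Cks1b) at least 2-fold below. The shares over all genes tested were 8.08% and 7.50%. Against wild type at 260 h 8 were called higher and 11 lower, but lower calls were 5 or 6 without any one of libraries 1 and 3 of the 260 h group or libraries 1, 2 and 3 of the 360 h group. Against knockout at 360 h 6 were higher and 3 lower, and 3 were higher without knockout library 3. Of all genes tested, 20.9% were higher and 18.9% lower against 260 h, and 13.5% and 8.93% against the knockout. Aurkc, the aurora kinase of meiotic cells, chosen here after its values were seen, was at 106, 126 and 58.5 CPM and rose by 4.04 ± 0.55 and 4.66 ± 0.57 (adjusted p = 6.33e-05 and 4.22e-05). Ccna2, the somatic cyclin A, was by contrast at 6.45, 3.16 and 3.43 CPM, against 146 CPM in cluster 1. Pttg1, the securin gene, was at 411, 473 and 398 CPM, which was 1.27 ± 0.32 above wild type at 260 h (adjusted p = 0.00516) and 0.47 ± 0.31 above knockout at 360 h (adjusted p = 0.301). Aurka, the mitotic aurora kinase, was at 233, 315 and 197 CPM, and its call against 260 h (1.21 ± 0.35, adjusted p = 0.0114) was lost without library 2 or library 3 of that group (1.05 and 1.12).

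Genes of the synaptonemal complex and of crossover formation were more often lower than higher in wild type at 360 h, though several were abundant. Of 24, 0 were at least 2-fold above every other cluster and 7 at least 2-fold below, among them Hormad2, Meiob, Sycp1 and Tex11. Without library 3 that count was 11. Calls were 2 higher and 13 lower against wild type at 260 h, and 0 higher and 13 lower against knockout at 360 h, with median log2 differences of −1.29 and −1.36. Under spike-in scaling the lower calls were 6 and 2. Sycp1, the central filament of the complex, chosen after its values were seen, was at 233, 266 and 352 CPM, against means of 843, 2408, 2012 and 802 CPM in clusters 1 to 4. It fell by 2.13 ± 0.26 and 1.14 ± 0.25 (adjusted p = 3e-05 and 0.00446), and under spike-in scaling its call against the knockout was lost (−0.59). Smc1b, the meiotic cohesin subunit, was at 355, 486 and 525 CPM. It was not called against wild type at 260 h (0.09 ± 0.25, adjusted p = 0.805), and fell by 1.31 ± 0.25 against the knockout (adjusted p = 0.00156, lost under spike-in scaling at −0.77). Syce1, of the central element, differed from these at 858, 1058 and 714 CPM, and rose by 1.70 ± 0.31 against 260 h (adjusted p = 0.000648), with 0.20 ± 0.30 against the knockout (adjusted p = 0.685).

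Early prophase genes, many of which act in meiotic entry or in the programmed DNA breaks, were also more often lower than higher. Of 27, 0 were at least 2-fold above and 6 at least 2-fold below every other cluster (Atm, Dmc1, Mcmdc2, Ugt8a, Ythdc2 and Zcwpw1), and 12 were without library 3. Calls were 3 higher and 11 lower against 260 h, and 0 higher and 15 lower against the knockout. Lower calls were 5 and 8 under spike-in scaling, and 9 against the knockout without knockout library 2. Zcwpw1, a reader of histone marks at break sites, was at 18.3, 17.4 and 28.9 CPM, against means of 126 to 398 CPM elsewhere. It fell by 1.83 ± 0.44 and 3.72 ± 0.48 (adjusted p = 0.00467 and 7.66e-05), the first of which was lost under spike-in scaling (−0.997). Prdm9, the methyltransferase that marks those sites, was at 4.04, 2.48 and 2.55 CPM and fell by 3.92 ± 0.52 against the knockout (adjusted p = 7.97e-05), with −0.41 ± 0.49 against 260 h (adjusted p = 0.529). Psmc3ip, a cofactor of DMC1, was the exception in level, at 406, 492 and 409.8 CPM, and rose by 1.42 ± 0.35 against 260 h (adjusted p = 0.00472, lost without the pre-meiotic cells at 0.92). Summed over their members, early prophase genes were at 1710.1, 1577 and 1935 CPM in libraries 1, 2 and 3, against 3611 CPM in cluster 4.

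The axoneme list, genes of the motile flagellum, was the most one-sided. Of 64 members tested, from 66 in the tables, 30 were at least 2-fold above every other cluster and 0 below. Calls were 59 higher and 0 lower against 260 h, and 43 higher and 0 lower against the knockout, with median log2 differences of 2.53 and 1.48. Without knockout library 3 the second count was 27. The summed level was 18897, 20618 and 16013 CPM, against 2177, 8801, 5391 and 11212 CPM in clusters 1 to 4. Dnaaf1, an assembly factor of dynein arms, was at 712, 839 and 507 CPM and rose by 3.41 ± 0.37 and 1.84 ± 0.35 (adjusted p = 1.52e-05 and 0.00149). Spag17, of the central pair, was at 719, 746 and 607 CPM and rose by 2.45 ± 0.27 and 1.59 ± 0.26 (adjusted p = 1.52e-05 and 0.0005). All libraries of cluster 5 exceeded the other cluster means for both genes. Dnah8, an outer-arm dynein heavy chain of sperm, was at 1058, 1021 and 740.0 CPM, 1.74 ± 0.29 above 260 h (adjusted p = 0.0003) and 0.75 ± 0.28 above the knockout (adjusted p = 0.0704). The call of Dnah8 against the knockout was gained without knockout library 1 (1.04), without wild-type library 3 (0.93), under spike-in scaling (1.20), with DESeq2 (0.84) and with the replicate number as a block (0.75). Rsph1, the most abundant member at 2152, 2352 and 1256 CPM, was 0.98 ± 0.30 above 260 h (adjusted p = 0.0157) and 0.32 ± 0.29 above the knockout (adjusted p = 0.477). The first of these calls was lost without library 3 of the 260 h group (0.85) and without the pre-meiotic cells (0.53).

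Of 40 genes of the acrosome and of sperm-egg fusion 26 passed the filter, and 11 of these were at least 2-fold above every other cluster and 1, the chaperone gene Calr3, below. Calls were 16 higher and 2 lower against 260 h, and 13 higher and 2 lower against the knockout (8 higher without knockout library 3). Spink2, a protease inhibitor of the acrosome, was at 1689.6, 1788 and 1038 CPM and rose by 3.52 ± 0.41 against 260 h (adjusted p = 1.95e-05). Against the knockout it was 0.85 ± 0.37 higher (adjusted p = 0.112), a call gained under spike-in scaling (1.27). Acrbp, the proacrosin-binding protein, chosen after its values were seen, was at 528, 635 and 369 CPM, and rose by 3.40 ± 0.43 and 2.97 ± 0.42 (adjusted p = 3.38e-05 and 0.000139). Prss21, a serine protease of sperm, was nearly private to the cluster at 74.4, 103 and 35.3 CPM, 20.5 times the highest other cluster, and rose by 5.16 ± 1.17 and 5.23 ± 1.15 (adjusted p = 0.00451 and 0.00669). Prss21 was named for its ratio in these same cells, so its p-values are no independent support. Library 3 was lowest for these 3 genes.

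The spermatid list rested in part on library 3. Of 36 members 23 passed the filter, and 13 of these were at least 2-fold above every other cluster, but 7 were without library 3. Calls were 12 higher and 0 lower against 260 h, and 10 and 0 against the knockout. Without library 3 the counts were 9 higher and 1 lower and 8 and 0, and without knockout library 3 the second was 6 higher. Tnp2, a transition protein of spermatid chromatin, was at 2.41, 3.78 and 21.9 CPM, and Gsg1 at 7.85, 20.2 and 53.3 CPM, both highest in library 3. Dbil5, a germ-cell acyl-CoA-binding protein, was by contrast at 358, 414 and 263 CPM, lowest in library 3 and 5.01 times the highest other cluster.

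Genes of a list of germ-cell metabolism, not all of them germ-cell forms of enzymes, were often high. Of 26 members 21 passed the filter, and 9 of these were at least 2-fold above every other cluster (Aldoart2, Gapdhs, Gk2, Hk1, Pfkp, Pgam2, Pgk2, Prps1l1 and Slc2a5), most of them of glycolysis, and 1 below (Acot13). Calls were 14 higher and 1 lower against 260 h, and 13 higher and 1 lower against the knockout, with medians of 1.85 and 1.44. Pgam2, a phosphoglycerate mutase, was at 1262, 1315 and 758 CPM, against at most 308 CPM elsewhere. Pgk2, the autosomal phosphoglycerate kinase, was at 202, 248 and 132 CPM, 9.57 times the highest other cluster, and rose by 4.41 ± 0.40 and 3.72 ± 0.38 (adjusted p = 7.77e-06 and 8.73e-06). Ldhc, at the top of the abundance order, rose by 1.57 ± 0.35 against 260 h (adjusted p = 0.00245), with 0.29 ± 0.34 against the knockout (adjusted p = 0.577).

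Pgk2 is one of the autosomal retrocopies of X-linked genes, which are thought to replace their silenced parents in meiosis. Of 9 such retrogenes tested, 3 (Cetn1, Gk2 and Pgk2) were at least 2-fold above every other cluster. Calls were 4 higher and 1 lower against 260 h, and 4 and 0 against the knockout, which was 2 higher without knockout library 2 or library 3. Cetn1, a centrin, was at 1589, 1753 and 1001 CPM, and its X-linked parent Cetn2 at 3.96, 2.34 and 2.55 CPM. Rpl10l, a ribosomal protein copy, was at 225, 206 and 227 CPM, and its parent Rpl10 at 10.8, 9.15 and 4.98 CPM, where cluster 1 had 323 CPM. Every library had the copy at least 10 times above the parent in both pairs. Cetn1 rose by 2.84 ± 0.50 and 1.80 ± 0.48 (adjusted p = 0.000555 and 0.0146), and the second call was lost without knockout library 2 (1.77) or library 3 (1.66). Cetn2 fell by 2.70 ± 0.71 against 260 h (adjusted p = 0.008), with −1.56 ± 0.68 against the knockout (adjusted p = 0.119, and called at −2.02 without knockout library 1). Rpl10l was not called (−0.40 ± 0.30 and 0.07 ± 0.30, adjusted p = 0.298 and 0.9), except at −0.68 against 260 h without the pre-meiotic cells. Reads of a copy and its parent are alike in sequence, and the handling of shared reads is not stated. The 10 parent genes summed to 33.4, 22.2 and 22.0 CPM in cluster 5 and to 730.4 CPM in cluster 1. Of them 0 were called higher and 6 lower against 260 h (2 lower without library 1 of that group, 3 without library 2 of the 360 h group), and 0 either way against the knockout (3 lower without knockout library 1).

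Levels were low across the X chromosome. Of 948 X-linked genes, 507 passed the filter, and 4 of these were at least 2-fold above every other cluster (1 without library 3) and 79 below. Against wild type at 260 h 4 were called higher and 281 lower, with a median of −2.38, and lower calls ranged from 128 without the pre-meiotic cells to 310 over the alternatives. Without library 1 of the 260 h group they were 156, and without library 2 of the 360 h group 170. Against the knockout 2 were higher and 24 lower, with a median of −1.25, and the lower count was unstable: 135 without knockout library 1, 1 without library 2, 3 without library 3, and 7 and 5 without wild-type libraries 2 and 3. In that comparison the lower share of 507 X-linked genes was below the 8.93% of all genes tested.

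A list of genes of the piRNA pathway, which silences transposons, went in both directions. The list also holds other RNA regulators of germ cells, Dazl among them. Of 28, 1 (Tdrd6) was at least 2-fold above every other cluster and 4 (Btbd18, Dazl, Fkbp6 and Mov10l1) below, and without library 3 these counts were 2 and 8. Calls were 7 higher and 10 lower against 260 h and 5 higher and 7 lower against the knockout. The first lower count was 6 without wild-type 360 h library 2, and the second was 4 without any one of those libraries 1 and 2 or knockout libraries 1, 2 and 3. Under spike-in scaling the lower counts were 5 and 2. Tdrd6, a tudor protein of the chromatoid body, was at 651, 561 and 436 CPM and rose by 3.74 ± 0.30 and 2.27 ± 0.28 (adjusted p = 5.21e-06 and 4.86e-05). Mael, another pathway member, was at 873, 757 and 897 CPM, with 0.69 ± 0.27 and 0.23 ± 0.27 (adjusted p = 0.0543 and 0.576), the first called by DESeq2 (0.82). Ddx25, a germ-cell RNA helicase, was at 829.9, 948 and 653 CPM and rose by 1.64 ± 0.28 against 260 h (adjusted p = 0.000325). Dazl, an RNA-binding protein of early germ cells, chosen after its values were seen, was at 127, 67.8 and 104 CPM, against means of 317 to 1458 CPM elsewhere. It fell by 3.03 ± 0.31 and 1.42 ± 0.29 (adjusted p = 1.03e-05 and 0.00256), the second lost under spike-in scaling (−0.92).

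Calls of ribosomal protein genes depended on the scaling and on single libraries. Of 82, 0 were at least 2-fold above every other cluster and 7 below. Calls were 1 higher and 11 lower against 260 h, and 0 and 4 against the knockout, with medians of −0.18 and −0.22. Under spike-in scaling they were 10 higher and 4 lower and 1 and 0, and the medians changed sign to 0.37 and 0.25. Without library 1 of the 260 h group they were 5 higher and 7 lower, with a median of 0.17. Against the knockout the lower count was 1 without knockout library 2 or 3 or wild-type library 3, and 2 without wild-type library 2. Chaperones and proteasome genes, 29 in all, had 1 member at least 2-fold above, Dnajb3 at 231, 181 and 604 CPM with library 3 highest, and 2 below, the mitochondrial chaperones Hspd1 and Hspe1. Hspd1 was at 12.4, 7.84 and 6.76 CPM, against means of 63.1 to 254 CPM elsewhere. Of 22 spermatogonial genes 0 were called higher and 17 lower against 260 h, and 0 and 3 against the knockout (10 lower without knockout library 1). The sums tested include the pre-meiotic cells, which in wild type were more frequent at 260 h than at 360 h. Knockout library 3 at 360 h held 10 of them, while all 77 cells of knockout library 1 were in cluster 4. The part of these cells in the calls was not tested. Immediate early genes, a sign of handling stress, summed to 228, 276 and 202 CPM, within the range of the cluster means of 177 to 498 CPM. Among 13 tested, 1 was called higher and 9 lower against 260 h (5 to 9 lower over the settings), with a median of −2.03. Against the knockout 2 were higher and 0 lower, each from 0 to 2 over the settings.

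Cluster 4, which the authors also call late pachytene and whose levels here come from knockout libraries alone, was the cluster nearest in level. Across the 20279 genes the log2 levels of clusters 5 and 4 correlated at 0.889, against 0.690, 0.853 and 0.7996 for clusters 1 to 3 (Pearson r across genes, which are not independent). Even so, 2765 genes were at least 2-fold higher in cluster 5 and 3060 at least 2-fold lower, and 1014 and 777 passed 4-fold. Among the genes named above, Ldhc, Meig1, Rsph1 and Syce1 were within 2-fold of cluster 4, while Gtf2a1l, Acrbp, Pgk2, Tdrd6 and Dnaaf1 were at least 2-fold above it. The early prophase markers Prdm9, Zcwpw1, Dmc1, Stra8 and Spo11 summed to 199, 161 and 176 CPM in cluster 5 and to 647 CPM in cluster 4. Not all of them were low in both comparisons: Spo11 was called higher in wild type at 360 h than at 260 h. That call was lost under spike-in scaling (1.38) and without library 1 of the 260 h group (0.725).

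The genes whose levels followed the 6 markers most closely over the 12 libraries were Cep295nl, Efcab6, Hyal6, Frs3os and Defb14, with Pearson r of log2 CPM with the marker mean from 0.982 to 0.988. Efcab6, an EF-hand gene, was at 169.9, 198 and 107 CPM in cluster 5 and at most 11.5 CPM in the mean of another cluster. Defb14, a beta-defensin, was far lower, at 7.54, 6.74 and 8.90 CPM. These values are a description, since 3 libraries hold nearly all of the high levels.

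The spread between the cells of the cluster was measured after thinning each cell to 54730 gene UMIs, so that depth did not enter. For each of 6034 genes with at least 1 UMI per cell on average in every library, the CV beyond counting was the part of the coefficient of variation that Poisson counting does not give. Its median was 0.252, 0.273 and 0.345 in libraries 1, 2 and 3 (0.290 ± 0.0488). The ERCC spike-ins, synthetic RNAs added to the cells, were thinned to 3360 UMIs per cell and gave 0.229, 0.194 and 0.213 over 47 spike-ins (0.212 ± 0.0172). These medians are not matched for level, so genes and spike-ins were set side by side in bands of mean UMIs. At 2 to 5 UMIs the gene medians were 0.302, 0.332 and 0.407 and those of 12 spike-ins were higher, at 0.365, 0.397 and 0.479. At 5 to 10 UMIs the order differed between libraries, with 0.232, 0.242 and 0.302 for 1350 genes and 0.283, 0.211 and 0.291 for 6 spike-ins. At 10 to 20 UMIs the 805 genes were at 0.192, 0.193 and 0.236, again below the 7 spike-ins at 0.284, 0.220 and 0.257. At 20 to 50 UMIs the 463 genes were at 0.153, 0.141 and 0.183, below the 5 spike-ins in libraries 1 and 2 and above them in library 3 (0.174, 0.183 and 0.130). At 50 to 100 UMIs the 85 genes were at 0.144, 0.122 and 0.200, above the 8 spike-ins at 0.0865, 0.0459 and 0.0521 in every library. The 12 genes above 100 UMIs were at 0.189, 0.168 and 0.189, against 0.0263, 0.0308 and 0.0420 for 8 spike-ins. The gene median was above that of the spike-ins in all 3 libraries in the 2 bands from 50 UMIs upward, where few genes lie. Library 3 had the largest median gene spread in each band up to 100 UMIs.

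**Figure D4:**
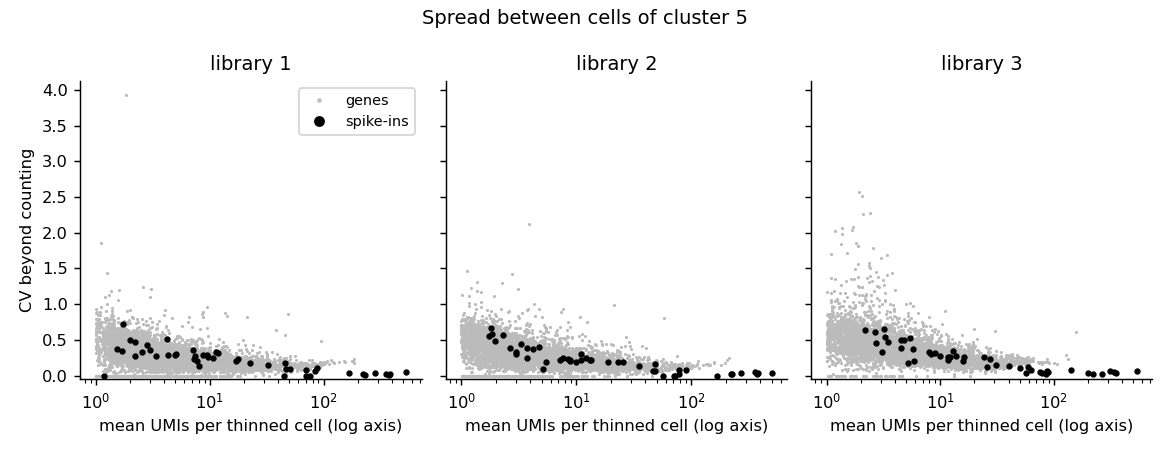
CV beyond counting (linear axis) against mean UMIs per thinned cell (log axis) for 6034 genes and 47 ERCC spike-ins in each of the 3 cluster 5 libraries, 1 point per gene or spike-in. The spike-ins lie within the cloud of genes at low means and below the genes from 50 UMIs upward.

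Among the lists, ribosomal protein genes had median CVs of 0.156, 0.133 and 0.193, germ-cell metabolic genes 0.144, 0.175 and 0.219, and axoneme genes 0.221, 0.184 and 0.276. These medians are not matched for level. The cluster-specific genes among them were at 0.286, 0.307 and 0.504, with the widest spread in library 3. Of genes at 10 UMIs or more, the 5 of least spread were Eif3e, a translation initiation subunit, Larp7, Adam5, Mkrn1 and Spa17, a sperm surface protein. Adam5, of the sperm fusion family, had CVs of 0.0686, 0.0858 and 0.106. Ranks of the CV agreed only loosely between libraries, with Spearman rho of 0.357 to 0.415 across genes. Of the 15 most variable genes, 6 were shared with a second random thinning and 7 with scaling in place of thinning, and 5 with both. Upk3bl, Scgb2b22-ps, Nf1 and Scgb2b23-ps were among these 5. Scgb2b22-ps and Scgb2b23-ps are pseudogenes of 1 secretoglobin family, so their counts may be shared. Nf1, the neurofibromin gene, had 356 thinned UMIs in library 2, of which 1 cell held 60 (16.9%).

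Cells of library 3 lay along an axis between earlier genes and cluster-specific genes. In thinned UMIs per cell, the 330 specific genes ran from 1172 to 3209 in library 3 (median 2174), from 2368 to 3751 in library 2 (median 2982) and from 1985 to 2900 in library 1 (median 2519). The CV of this sum was 0.222 in library 3, against 0.0760 and 0.1004 in libraries 1 and 2. The sum of 51 early prophase and synapsis genes ran against it, with r of −0.771 over 93 cells in library 3 and −0.475 over 91 cells in library 2, but 0.167 over 83 cells in library 1. Leaving out the 1 cell with high spermatid RNA gave −0.783 in library 3. These correlations within a library are a description, as cells of 1 library share their batch and both sums come from the same fixed total. Cell depth before thinning correlated with the specific sum at 0.246, 0.202 and 0.0826.

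**Figure D5:**
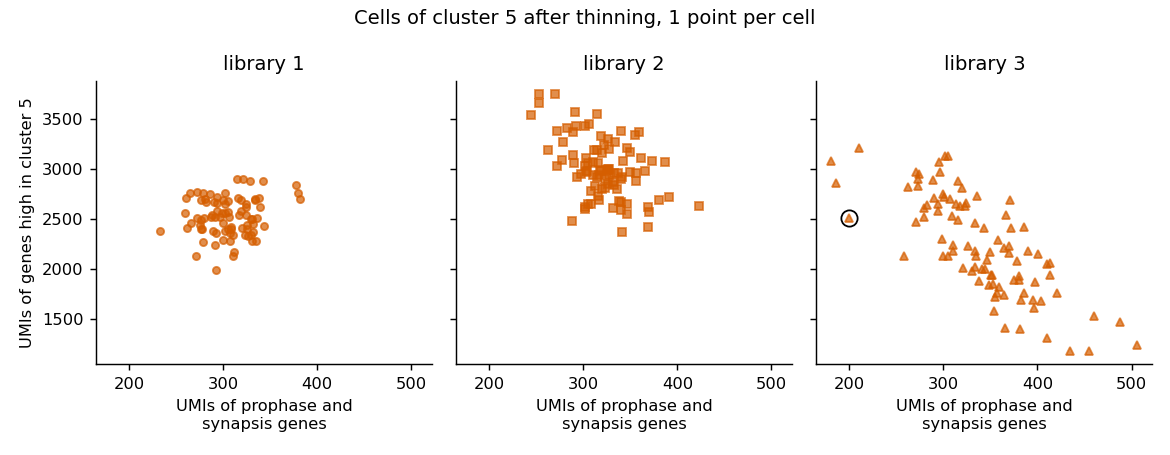
Thinned UMIs per cell of the 330 cluster-specific genes against those of 51 early prophase and synapsis genes, 1 point per cell and 1 panel per library, with the high-spermatid cell ringed. Cells of library 3 spread from 1172 to 3209 specific UMIs and fall along a downward slope, and those of library 1 form a compact cloud.

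Wild-type 360 h cells gave more gene UMIs per spike-in UMI than the groups beside them. The ratio was 19.5, 16.6 and 31.2 in the 3 libraries (22.5 ± 7.73), 7.39, 10.1 and 19.0 in wild type at 260 h (12.1 ± 6.05) and 12.6 ± 0.439 in knockout at 360 h. All 3 wild-type 360 h libraries exceeded the knockout libraries, while the range of the 260 h group overlapped theirs. The exact two-sided permutation test of 3 against 3 libraries gave p = 0.2 for the times and p = 0.1 for the genotypes, where 0.1 is the smallest p possible (adjusted p = 0.2 for both). The means differed 1.85-fold and 1.78-fold, and 1.49-fold to 2.58-fold and 1.43-fold to 2.01-fold with 1 library left out.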

How the data were processed

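Single germ cells of 12 testis libraries were sequenced by a modified Smart-seq2 protocol with 3′ capture, per the labels' protocols. The authors deposited raw UMI counts per gene and cell barcode for 55450 genes and 92 ERCC spike-ins. Per the submitters' processing notes, STAR 2.5.3a, featureCounts 1.6.4 and UMI-tools 1.0.0 were used with the build mm10, with no order or settings given. Cell classes, k-means clusters and principal component scores are the authors' deposited values, and how they were made is not stated. Cells were used as the authors kept them (929), and no doublet caller was run on the hand-picked cells.

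Counts were summed per library and cluster for the description (libraries with at least 10 cells of a cluster) and scaled to CPM. Ratios between clusters are (mean CPM + 1) over (mean CPM + 1). For tests, counts of all kept cells were summed per library, filtered with filterByExpr (20279 genes) and scaled by TMM, and edgeR 4.0.16 (R 4.3.3) was fitted to all 12 libraries with the quasi-likelihood test, Benjamini-Hochberg adjusted, two-sided. The method was tested on simulated data. Alternatives were DESeq2 1.42.0, no filter, spike-in scaling, a replicate block, pachytene cells alone and each library left out. Counts without library 3 or without its cell of high spermatid RNA were added after seeing the data. Other values came from Python 3.11.15 with numpy 2.4.6, scipy 1.17.1 and pandas 2.3.3, and from matplotlib 3.10.9 for the plots.

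The members and the gene lists were chosen with earlier results of these data known. Named genes followed a rule: the 15 most abundant, the 20 of highest ratio with at least 20 CPM in each library, the 10 of lowest ratio, the 15 of largest CV, the 5 most like the markers, the markers, and of each list up to 5 of highest level and the 1 of highest ratio. Mitochondrial genes and genes with only a predicted, clone or accession name were left out of the groups by abundance, ratio, CV and likeness to the markers. Members given only by name or under a count were named from their values.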

Additional observations from a re-analysis of the deposited data

Results flagged for a closer look

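One cluster 5 cell came from library 1 of the wild type at 260 h. The levels of cluster 5 by library leave it out, as its library had no other cell of the cluster, while the comparison of the times holds it in the sum of that library. With the whole library left out, all 6 markers were still called higher at 360 h. Its 6 marker genes summed to 802.83 CPM (123 UMIs), while the other 51 cells of its library had 0 to 336 CPM with a median of 65.3, and cluster 5 cells at 360 h had 339 to 2074 CPM with a median of 1029. Its cluster-specific genes were at 59259 CPM, against 1105 to 9104 CPM in the other cells of the library and 22538 to 68934 CPM in cluster 5 at 360 h. The cell had 153208 gene UMIs, the most of its library, and 11614 detected genes. Its round-spermatid markers were at 13.1 CPM (2 UMIs). X-linked genes took 0.452% of its UMIs, above the 0.179%, 0.135% and 0.208% of the cluster 5 libraries at 360 h. It is a single cell with no replicate, and nothing was tested on it.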

How the results depend on the processing

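Against knockout at 360 h 4554 genes were called (2743 higher, 1811 lower), and with 1 library left out the counts ran from 2600 to 4179 (higher 1507 to 2458, lower 1065 to 1721). They were lowest without knockout library 3 (2600) and library 2 (2816). Against wild type at 260 h 8082 were called (4244 higher, 3838 lower), with 2383 to 3349 lower when 1 library was left out, the fewest without wild-type 360 h library 2. Scaling by spike-in UMIs left 637 and 1683 lower calls in the 2 comparisons. DESeq2 called 5795 and 9077 genes. The replicate numbers did not pair the libraries (correlations of deviations −0.144 to 0.168), and with the replicate block 4026 and 7316 genes were called. The cluster-specific genes were 190 at a minimum of 50 CPM, and 257 to 428 under the other settings. Among 1166 alternative values for single genes, 0 of those called in the main fit changed direction. Changes of direction among values not called in the main fit were not counted. Of the 1166 values, 54 lost the call and 17 gained it. The cause of these changes was not tested, except that fewer libraries or genes enter some settings. Depth limits X-linked and other low genes, whose levels in these cells were a few CPM.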
